A study of Arabidopsis thaliana with 12 samples.

Results

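The 91 genes described here are those whose RNA gave a lower array signal after treatment in a consistent way, out of 692 rows of the table that the platform annotation assigns to exactly 1 gene and 3439 rows in all. A row was taken when it had no 0 on any array, a ratio of mean treated to mean water intensity of at most 0.667, and a lower value in the treated array of all 6 same-number pairs. Of the 692 rows, 545 had no 0, 110 of these reached the ratio limit, and 12 of the 110 were not lower in every pair. That left 98 rows. A set of 9 gene names was left out, of which 7 had met these conditions, so that 91 members remained. The members were thus chosen by their treated and water intensities on these arrays, so every lower value below is a description of that choice and was not tested.

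The treated samples were wild-type Arabidopsis thaliana of the ecotype Columbia 0 exposed to staurosporine (2 µM, 4 h) before ascorbate (25 mM, pH 5.5, 4 h), on 6 arrays. The water samples were the same wild type kept in water for 8 h (6 arrays). Both groups carry replicate numbers 1 to 6, the labels speak of plants without naming an organ or an age, and they do not say whether the replicates came from separate plants. The agents, their order and the pH were applied only together, so their parts in any value cannot be told apart. Total RNA was measured as 1 linear intensity per row and array, on a scale the labels do not explain. Array means lay between 0.857 and 1.04, and between 10.3% and 15.2% of an array's values were 0. Array medians were 0.437, 0.431, 0.355, 0.351, 0.486 and 0.483 in treated replicates 1 to 6. In water replicates 1 to 6 they were 0.470, 0.475, 0.408, 0.405, 0.477 and 0.485, higher than in the treated partner in all pairs but pair 5. The rule used intensities as deposited, and 69 of the 91 members met it after division by array medians. An intensity compares arrays for 1 row and not the RNA amounts of different genes, and in bulk RNA fewer cells that use a gene and less RNA per cell cannot be told apart. No organ could be checked, because 1 of 9 leaf marker genes (SBPASE, not a member) and 0 of 9 root marker genes had a row with a single gene.

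Staurosporine blocks the ATP site of many protein kinases, the enzymes that pass signals on by adding phosphate to proteins. Ascorbate is an abundant antioxidant of plant cells and a substrate of the enzymes that remove peroxide in the chloroplast. Whether the members share a pathway was not tested. By textbook function, 62 of the 91 could be placed in 9 role groups, and 29 are given without a role. The role groups were metabolic enzymes (13), other named proteins of mixed function (10), RNA and DNA handling (8), transport and membranes (8), kinases and phosphatases (6), plastid membranes and pigments (6), cell wall and sugar transfer (5), protein folding and turnover (4) and transcription factors (2).

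The ratio of means ran from 0.311 to 0.667 over the members, with a median of 0.551, which is 1.81-fold lower after treatment. It was 0.4 or less for 6 members, 0.5 or less for 28, above 0.5 and up to 0.6 for 35, and above 0.6 for 28. All treated arrays lay below all water arrays in 59 members, and the groups overlapped in 32. In the rows with a single gene and no 0, the groups lay apart in this direction in 13.6%, and over all rows of the table in 12.2%. The rule itself was met by 18.0% of the single-gene rows without a 0, by 14.2% of the 692 rows without a 0 that carry several genes, and by 20.0% of the 1443 rows without a 0 that the annotation does not list. The mirrored condition, higher in all 6 pairs by the same factor, was met by 67 single-gene rows (12.3%). Both conditions used intensities as deposited, and array medians were higher in water in most pairs. The balance of lower and higher rows changed with normalization between arrays, so nothing is read from the difference of these shares.

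**Figure D1:**
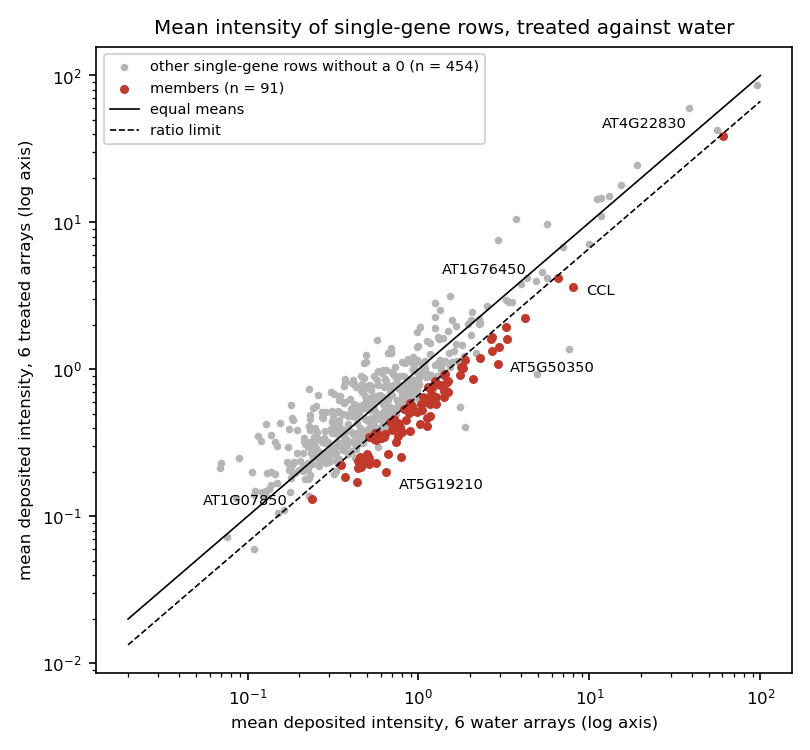
Mean deposited intensity of each single-gene row without a 0 on the 6 treated arrays (vertical, log axis) against the 6 water arrays (horizontal, log axis), with the 91 members in red and the 454 other rows in grey. Members lie under the dashed ratio limit by choice and span water means from 0.237 to 60.6, and grey points under that line are rows not lower in every pair or left out by name.

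Members were found along most of the intensity range, with water means from 0.237 (AT1G07850) to 60.6 (AT4G22830) and a median of 0.919. The median over the 545 single-gene rows without a 0 was 0.578. By rank of water mean among those rows, 44 members were in the upper 25% and 1 was in the lowest 25%. The water mean is part of the ratio that chose the members, so the rule itself favours high water values and nothing is read from these ranks. A row with any 0 could not be taken, and 10 rows with a 0 met the other conditions.

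Among the proteins that handle RNA and DNA were the members with the 2 lowest ratios. AT5G19210, a DEAD-box RNA helicase, had intensities from 0.133 to 0.294 with a median of 0.183 on treated arrays, against 0.539 to 0.734 with a median of 0.637 on water arrays. Its ratio of means was 0.311, or 3.22-fold lower, and the groups lay far apart. AT4G31210, a type IA DNA topoisomerase, which relaxes DNA by cutting and rejoining 1 strand, stood at 0.114 to 0.320 (median 0.268) in treated samples and at 0.575 to 1.04 (median 0.815) in water samples, a ratio of 0.320. AT1G03810, a protein of the OB-fold class that binds nucleic acids, had 0.370 to 0.648 (median 0.473) after treatment, against 1.02 to 1.35 (median 1.16) in water. For all 3 genes the highest treated array was below the lowest water array.

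Both pseudouridine synthases among the members, enzymes that isomerise uridine in RNA, differed in pattern. AT2G30320 gave 0.505 to 0.767 (median 0.626) on treated arrays and 1.01 to 1.60 (median 1.12) on water arrays. AT4G21770 gave 0.347 to 1.55 (median 0.833) on treated arrays and 0.973 to 2.03 (median 1.26) on water arrays, so its groups overlapped. Within each number it was still lower after treatment, with mean log2 ratios of -0.42 in pairs 1 and 2, -0.61 in pairs 3 and 4 and -1.21 in pairs 5 and 6. AT4G04370, a pentatricopeptide repeat protein of the class that binds organelle RNA, AT4G08940, of the PORR family of organelle RNA-binding proteins, and AT3G50880, of the DNA glycosylase class of base repair enzymes, had ratios of 0.566, 0.568 and 0.634 with groups that lay apart.

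Of the proteins of plastid membranes and pigments, Z-ISO, the 15-cis-zeta-carotene isomerase of carotenoid synthesis, had the lowest ratio (0.416) and the least even values. Treated intensities were 0.205, 0.0886, 0.353, 0.504, 0.932 and 0.715 in replicates 1 to 6, against 0.796, 0.909, 1.07, 1.12, 1.45 and 1.38 in water. The mean log2 ratio was -2.66 in pairs 1 and 2, -1.38 in pairs 3 and 4 and -0.79 in pairs 5 and 6, and the groups overlapped. AT1G22700, an assembly factor of photosystem I, had 0.656 to 0.811 (median 0.698) after treatment and 1.11 to 2.04 (median 1.33) in water. Its treated arrays were close together, and its water arrays were spread between replicates 1 and 2, at 1.97 and 2.04, and replicates 5 and 6, at 1.11 and 1.12.

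AT4G22830, a YCF49-like protein, was the brightest member. It stood at 27.3 to 49.5 (median 41.4) on treated arrays and at 52.7 to 72.2 (median 56.8) on water arrays, with a ratio of 0.637 and groups that lay apart. AT1G76450, a PsbP-domain protein of the thylakoid lumen, the space enclosed by the photosynthetic membranes, ranged over 2.95 to 5.73 (median 4.00) after treatment and 4.88 to 8.54 (median 6.33) in water. Most of its difference lay in replicates 5 and 6. There it had 2.95 and 2.98 in treated samples against 8.43 and 8.54 in water samples, while the mean log2 ratio was -0.29 in pairs 1 and 2 and -0.17 in pairs 3 and 4. AT1G74070, a cyclophilin-type prolyl isomerase that helps proteins fold, was counted in this group and not under protein folding and turnover. It had 0.219 to 0.598 (median 0.479) after treatment, against a narrow 0.719 to 0.805 (median 0.762) in water. AT4G13200, a protein found in plastoglobules, the lipid droplets of the chloroplast, had a ratio of 0.645 and overlapping groups.

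**Figure D2:**
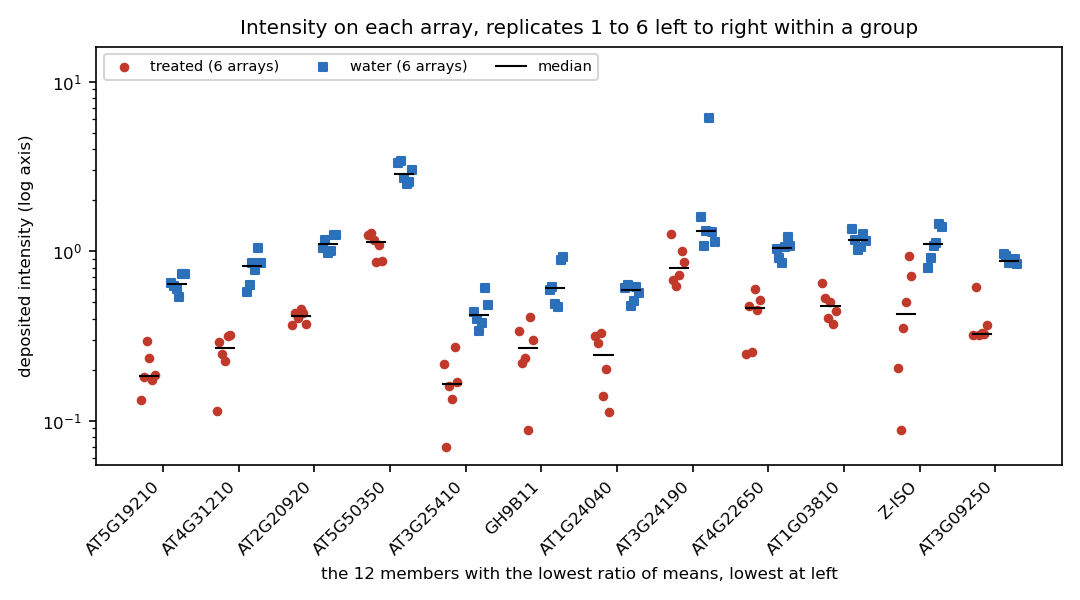
Deposited intensity (log axis) on each of the 6 treated arrays (red circles, left) and 6 water arrays (blue squares, right) for the 12 members with the lowest ratio of means, with a black bar at each median. Treated and water points overlap for AT3G24190, whose water replicate 4 stands at 6.12, and for Z-ISO, and lie apart for the other 10.

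The group of kinases and phosphatases held 4 protein kinases and 2 proteins of protein phosphatases. AT3G24190, an atypical kinase of the ABC1 family, had 0.6252 to 1.26 (median 0.790) on treated arrays and 1.07 to 6.12 (median 1.31) on water arrays. Its ratio of means of 0.410 rested on water replicate 4, the array at 6.12. Without pair 4 the ratio was 0.690, above the limit, and the ratio of medians was 0.604. AT3G57120, a protein kinase, had 0.287 to 0.450 (median 0.395) after treatment and 0.725 to 0.874 (median 0.816) in water, and AT5G40030, another, had 1.504 to 1.69 (median 1.68) and 2.70 to 3.69 (median 3.33). Both had groups well apart, and the treated arrays of AT5G40030 had an SD of 0.0880 around a mean of 1.62. AT1G69910, also a kinase, had 0.256 to 0.627 (median 0.456) in treated samples and 0.635 to 1.203 (median 0.719) in water samples, so the groups nearly touched.

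The phosphatase of the 2C class AT4G33500 had 0.423 to 0.664 (median 0.634) on treated arrays and 1.01 to 1.17 (median 1.12) on water arrays. AT3G54930, a B′ regulatory subunit that directs the protein phosphatase 2A enzyme to its substrates, had 0.159 to 0.617 (median 0.295) after treatment and 0.522 to 0.843 (median 0.590) in water. The first had groups apart and even pairs, and the second had overlapping groups with mean log2 ratios of -1.96, -0.68 and -0.36 in pairs 1 and 2, 3 and 4, and 5 and 6. None of the 6 genes listed for SnRK1, the kinase complex of plant energy signalling, had a row with a single gene.

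Transporters and membrane proteins numbered 8. AT3G25410, a symporter of the bile acid and sodium class, had 0.0697 to 0.271 (median 0.164) on treated arrays and 0.339 to 0.604 (median 0.418) on water arrays. It was the single gene of the 6 listed for this family with a row of its own. AT2G32040, a folate and pterin transporter of the plastid envelope, had 0.700 to 1.18 (median 0.910) after treatment and 1.57 to 2.08 (median 1.63) in water. Its mean log2 ratio was -0.88 in pairs 1 and 2, -0.98 in pairs 3 and 4 and -1 in pairs 5 and 6, so the 3 sets lay close together.

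AT4G39690, the mitofilin-type protein that shapes the inner membrane of mitochondria, stood at 1.76 to 2.20 (median 1.91) on treated arrays and at 2.94 to 3.45 (median 3.26) on water arrays, and its 6 log2 ratios spanned 0.38. Its mean log2 ratio was -0.50 in pairs 1 and 2, -0.86 in pairs 3 and 4 and -0.85 in pairs 5 and 6. PRA1.B6, a prenylated RAB acceptor of vesicle traffic, had 0.203 to 0.507 (median 0.445) and 0.608 to 0.868 (median 0.753) in treated and water samples. AT4G00170, of the plant family of vesicle-associated membrane proteins, had 0.289 to 0.863 (median 0.581) after treatment and 0.602 to 1.40 (median 1.198) in water, and the groups overlapped because water replicate 1, at 0.602, lay below all other water arrays. AT2G29870, of the aquaporin class, had a ratio of 0.575 with groups apart. AT3G02690, of the EamA class of transporters, and AT1G02260, a divalent ion symporter, had ratios of 0.642 and 0.664 with overlapping groups.

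Of 5 members that act on the cell wall or transfer sugars, 3 belong to glycosyl hydrolase family 9, the endoglucanases that cut cellulose-like chains in the wall. GH9B11 had 0.0879 to 0.407 (median 0.267) on treated arrays and 0.471 to 0.924 (median 0.603) on water arrays. GH9B12, its neighbour on the chromosome, had 0.0830 to 0.478 (median 0.193) and 0.363 to 0.623 (median 0.470), with overlap. GH9B16 had 0.371 to 0.611 (median 0.544) after treatment and 0.817 to 0.931 (median 0.859) in water, with groups apart. GH9B11 and GH9B12 were the 1 case of members that are next to each other among protein-coding genes. Neighbouring paralogs can share sequence, so signal of 1 on the spot of the other cannot be told apart here.

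The platform listed 11 rows for this family, a look chosen after the 3 members had been seen. A row shared by GH9B9, GH9B10, GH9B11 and GH9B12 had a ratio of 0.599, the row of GH9B9 and GH9B10 had 0.631, and the row of GH9B16, GH9B17 and GH9B18 had 0.748. The row of GH9B17, GH9B18 and AT3G42155 was listed at 0 on 4 treated arrays and had 0.105 and 0.0577 on the others, against 0.219 to 0.345 in water. Not all rows of the family were lower: both rows of GH9B14 and GH9B15 had ratios of 1.29 and 1.48, and GH9B8, with 2 zeros, had 1.09. The remaining row, of GH9C2 and GH9C3, had 0.788. AT1G11730, of the galactosyltransferase class, had 0.181 to 0.517 (median 0.375) after treatment and 0.634 to 0.957 (median 0.717) in water. AT1G35510, of the O-fucosyltransferase class, had 0.209 to 0.582 (median 0.373) and 0.509 to 0.933 (median 0.653).

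Metabolic enzymes were the largest role group, with ratios from 0.407 to 0.661 and groups apart in 8 of 13. AT1G24040, of the class of acetyltransferases that use acyl coenzyme A, had 0.113 to 0.329 (median 0.244) on treated arrays and 0.476 to 0.632 (median 0.586) on water arrays. AT4G26770, of the CDP-diacylglycerol synthase class, which activates phosphatidate for lipid synthesis, had 0.0352 to 0.396 (median 0.228) and 0.313 to 0.599 (median 0.401). Its treated replicates 1 and 4, at 0.0352 and 0.0742, stood far below the rest, and its pairs spanned 3.12 on the log2 scale. AT3G04650, an oxidoreductase with a flavin site, had 0.740 to 1.85 (median 1.45) in treated samples and 1.92 to 3.87 (median 2.42) in water samples.

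Enzymes with a named pathway included AT1G31220, the glycinamide ribonucleotide formyltransferase of purine synthesis, with 0.185 to 0.533 (median 0.440) after treatment and 0.672 to 0.920 (median 0.747) in water. AT5G10920, argininosuccinate lyase, which makes arginine in the last step of its synthesis, had 0.935 to 2.21 (median 1.72) and 2.24 to 3.13 (median 2.59). PPDK, the pyruvate orthophosphate dikinase, which makes phosphoenolpyruvate from pyruvate, had 0.423 to 0.733 (median 0.485) and 0.578 to 1.11 (median 0.824). The first of these had groups apart, those of the lyase were close, and those of PPDK overlapped. AT4G29890, which resembles choline monooxygenase, stood at 1.46 to 2.74 (median 2.56) on treated arrays and 3.43 to 5.15 (median 4.13) on water arrays, and was low in treated replicates 5 and 6, at 1.46 and 1.47.

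The other enzymes had ratios from 0.558 to 0.661. They were AT3G11150 (0.558), a 2-oxoglutarate-dependent oxygenase, AT4G00590 (0.560), of the asparaginase family, AT1G15140 (0.584), a flavin oxidoreductase, AT1G06730 (0.620), a pfkB-type sugar kinase, AT4G29120 (0.642), of the 6-phosphogluconate dehydrogenase family, and AT5G11650 (0.661), an alpha/beta hydrolase. Of these 6, AT3G11150, AT4G00590 and AT1G06730 had groups apart.

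The protein-handling and transcription groups were small. AT2G20920, a chaperone-like protein, had 0.367 to 0.456 (median 0.416) on treated arrays and 0.973 to 1.25 (median 1.11) on water arrays, with a ratio of 0.368. Its treated values had an SD of 0.0355 around a mean of 0.410, and the gap between the groups was wider than the range of either. The aspartyl protease AT2G03200 (ratio 0.521), the carboxyl-terminal processing peptidase AT5G46390 (0.565) and the kelch-repeat F-box protein AT1G22040 (0.585), a substrate adaptor for ubiquitin ligases, had overlapping groups. AT5G46390 was low in replicate 3 of both groups, at 0.0416 treated and 0.241 in water. AT5G01860, a C2H2 zinc finger protein, had 0.0734 to 0.364 (median 0.196) after treatment and 0.341 to 0.553 (median 0.482) in water. AT1G01250, of the DREB class of the ERF transcription factors, had 0.549 to 0.991 (median 0.725) and 1.06 to 1.31 (median 1.15).

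CCL, a transcript under circadian and light control, was the second brightest member and the only one of 19 listed clock genes with a row of its own. Its treated intensities were 5.99, 5.61, 3.03, 3.97, 1.57 and 1.76 in replicates 1 to 6, against 7.62, 8.11, 7.49, 8.53, 8.62 and 7.84 in water. Water arrays differed little, with an SD of 0.468 around a mean of 8.03, whereas treated arrays differed by replicate number, with an SD of 1.88 around 3.66. AT2G46300, of the hydroxyproline-rich class of late embryogenesis abundant proteins, had the same order of sets, with treated values of 1.93, 1.80, 1.53, 1.57, 0.827 and 0.831, against 2.54, 2.41, 3.23, 3.34, 3.06 and 3.07 in water.

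AT4G22650, of the lipid-transfer protein class, had 0.247 to 0.595 (median 0.463) on treated arrays and 0.851 to 1.21 (median 1.05) on water arrays. AT3G09250, of the nuclear transport factor 2 class, had 0.320 to 0.612 (median 0.325) and 0.838 to 0.968 (median 0.876), with 5 of 6 treated arrays at 0.366 or below. The others of this group were CUTA (ratio 0.505), a plastid protein that binds copper, the repeat proteins AT4G32340 (0.501), AT3G26580 (0.564) and AT4G16490 (0.664), the flavin-binding AT3G03890 (0.621) and AT2G24810 (0.639), of the thaumatin class of defence proteins.

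**Figure D3:**
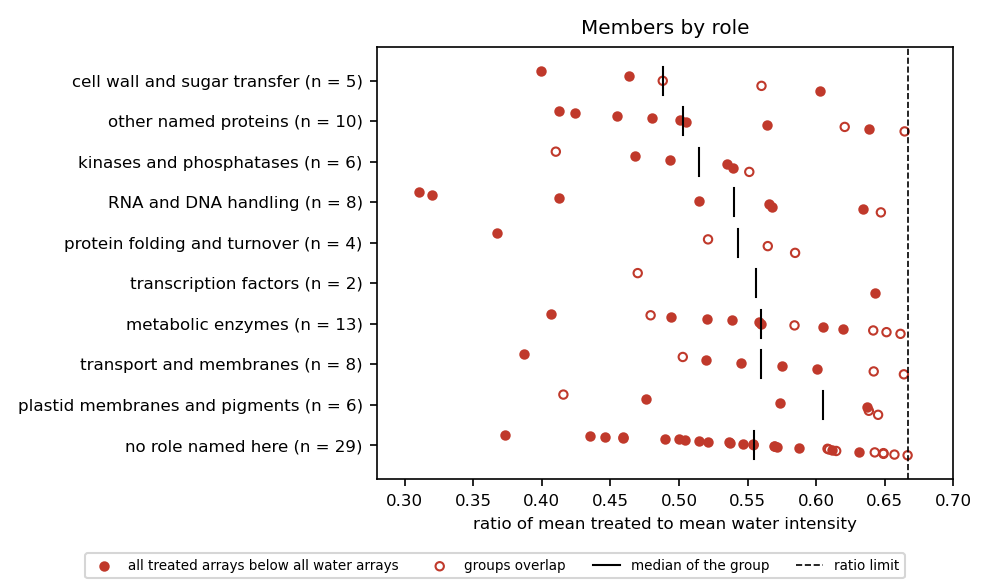
Ratio of mean treated to mean water intensity of each of the 91 members by role group, with filled points where all treated arrays lay below all water arrays, open points where the groups overlapped, a bar at the median of each role group and a dashed line at the limit of 0.667. Medians run from 0.488 in cell wall and sugar transfer to 0.605 in plastid membranes and pigments, and the points of all role groups overlap.

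Among the 29 members given without a role, ratios ran from 0.373 to 0.667 with a median of 0.554, and 19 had groups apart. AT5G50350 had the lowest ratio, with 0.868 to 1.28 (median 1.13) on treated arrays and 2.50 to 3.41 (median 2.84) on water arrays. DAL1, whose gene ID matched no locus, had 0.236 to 0.470 (median 0.304) and 0.691 to 0.775 (median 0.737). The other members of this group with a ratio under 0.5 were AT2G21960 (0.446), AT5G66780 (0.459), AT2G21720 (0.459), AT1G32730 (0.490) and AT5G25990 (0.50). AT5G25990 had groups apart although its treated values ran from 0.0277 to 0.336, against 0.342 to 0.405 in water.

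Between 0.5 and 0.6 lay AT2G31920, AT5G06010, AT5G38310, AT4G37420, AT1G65090, AT3G44570, AT2G36480, AT1G07850, AT3G53470, AT1G50880, AT2G37880 and AT5G38360, of which AT1G07850 and AT1G50880 had overlapping groups. Above 0.6 lay AT5G19540, AT3G50350, AT1G32520, AT2G41950, AT4G35660, AT2G36920, AT5G24690, AT4G13680, AT1G07040 and AT4G27510. Of these 10, AT1G32520 and AT4G35660 had groups apart. AT4G13680 was low on both arrays of replicate 4, at 0.134 treated and 0.149 in water, with 0.713 to 1.41 and 1.40 to 1.92 on the other arrays.

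The members nearest the limit inside it were AT5G11650 (0.661), AT1G02260 (0.664), AT4G16490 (0.664) and AT4G27510 (0.667). Just outside it, lower in all 6 pairs and with no 0, were AT5G49120 (0.670), AT4G19430 (0.671), AT3G51500 (0.672) and AT5G19750 (0.675). All treated arrays lay below all water arrays in AT5G49120 and AT5G19750 and in none of the 4 just inside. In total 49 single-gene rows were lower in every pair with a ratio above the limit.

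Same-number pairs gave nearly the same size of difference over the members. The median log2 ratio was -0.92, -0.89, -0.87, -0.91, -0.83 and -0.84 in pairs 1 to 6. In the 454 other single-gene rows without a 0 it was 0.00, -0.05, 0.00, -0.01, 0.18 and 0.23, higher in pairs 5 and 6 than in the others. The rule took the members out of these rows, which raises their medians. Over all 545 single-gene rows without a 0 the medians were -0.21, -0.22, -0.16, -0.15, 0.04 and 0.03. On the quantile-normalized scale, which gives all arrays one distribution, the member medians were -0.83, -0.78, -0.70, -0.68, -0.90 and -0.86 and those of the other rows 0.08, 0.06, 0.17, 0.14, 0.18 and 0.23. The distance between the members and the other rows was set by the rule that divided them, so nothing is read from its size.

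**Figure D4:**
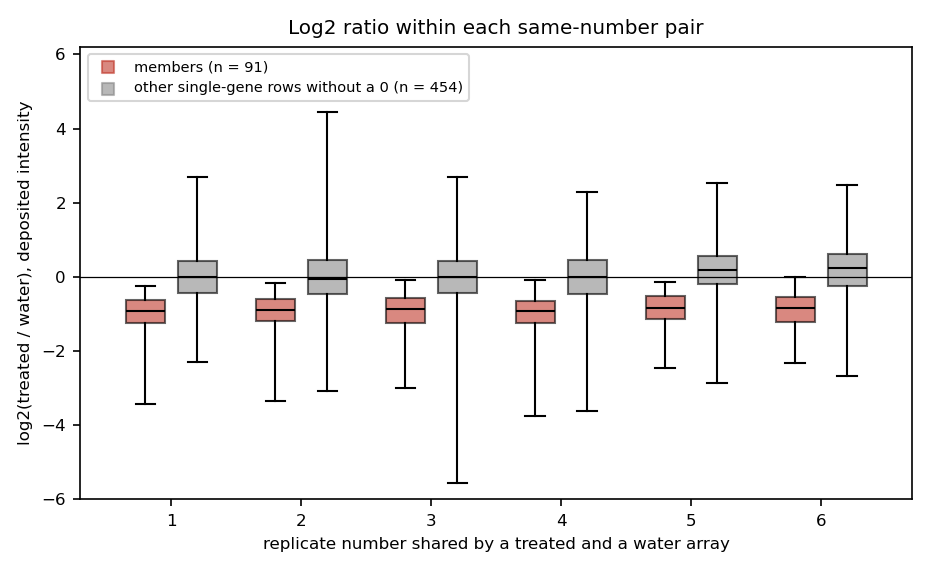
Log2 ratio of treated to water deposited intensity within each same-number pair, for the 91 members (red, left) and the 454 other single-gene rows without a 0 (grey, right), with boxes from the 25th to the 75th percentile, a line at the median and whiskers to the lowest and highest row. Member medians lie between -0.92 and -0.83 in all 6 pairs, and members lie below 0 by choice.

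Single members were less even than these medians. All 6 pairs were at or below 0.667 in 28 members, 5 pairs in 13, 4 pairs in 35 and 3 or fewer in 15, and 9 members had at least 1 pair at 0.9 or above. The range of a member's 6 log2 ratios had a median of 0.98. The narrowest were AT2G31920, with 0.593 to 0.863 (median 0.696) after treatment and 1.21 to 1.67 (median 1.38) in water and a range of 0.19, AT3G03890 (0.30), AT2G37880 (0.33) and AT4G39690 (0.38). The widest were AT5G25990 (3.66), AT4G26770 (3.12), AT1G07850 (2.92) and AT3G24190 (2.75). In AT5G25990, AT4G26770 and AT1G07850 the wide range came with a lowest treated intensity of 0.0277, 0.0352 and 0.0272 in that order.

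Differences of a member from 1 pair to the next went by adjacent numbers. Across the 91 members, the log2 ratios of pairs 1 and 2 had r = 0.54, of pairs 3 and 4 r = 0.27 and of pairs 5 and 6 r = 0.79. The 12 combinations of pairs from different sets of adjacent numbers had r between -0.23 and 0.15. These values describe members that all passed the same rule, and the labels do not say what adjacent numbers share. The mean log2 ratio was lowest in pairs 1 and 2 for 26 members, in pairs 3 and 4 for 33 and in pairs 5 and 6 for 32, and it was at or below the limit in all 3 sets for 42. CCL, AT2G46300, AT1G76450 and AT3G26580 had their lowest mean in pairs 5 and 6 (-2.31, -1.89, -1.52 and -1.55). Z-ISO, AT1G32730, AT3G54930 and AT2G24810 had theirs in pairs 1 and 2 (-2.66, -2.02, -1.96 and -1.45).

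**Figure D5:**
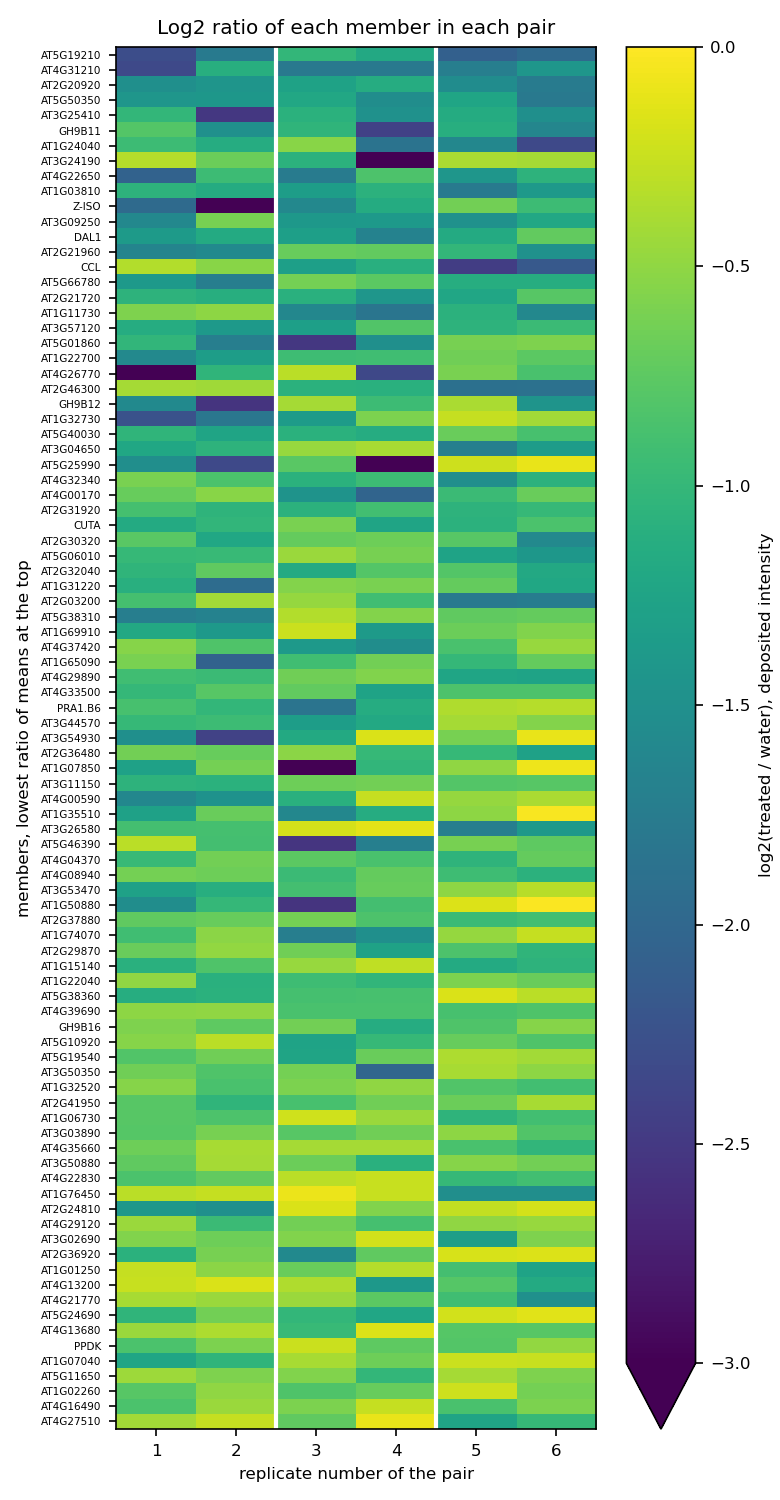
Log2 ratio of treated to water deposited intensity for each of the 91 members (rows, lowest ratio of means at the top) in each of the 6 same-number pairs (columns), with white lines between the sets of adjacent numbers. Colours within a set are more alike than between sets, most in pairs 5 and 6 (r = 0.79) and least in pairs 3 and 4 (r = 0.27). An example is CCL, at -2.31 on average in pairs 5 and 6 and -0.44 in pairs 1 and 2.

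Deposited intensities of replicates were more spread in treated than in water samples. The coefficient of variation over 6 arrays had a median of 27.1% in treated and 14.6% in water samples over the members. In the 454 other rows it was 26.7% in treated and 17.7% in water samples, so a wider treated spread was not seen in the members alone. Differences of scale between arrays count in this spread. Array medians ran from 0.351 to 0.486 in treated and from 0.405 to 0.485 in water samples, and their part in it was not tested.

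The platform annotation also named 13 members on 12 rows that carry other genes too, and the rule did not use these rows. Of the 12, 10 had no 0, with 5 ratios under 1 and 5 above 1. In limma's test over all 3439 rows, 1 of the 12 was lower at an adjusted p under 0.05 and 1 was higher, where 16.2% of all rows were called lower and 16.7% higher. The row of AT4G32340 with AT1G80133, AT1G80130 and AT5G20190 had 0.493 to 0.794 after treatment and 1.13 to 1.45 in water, a ratio of 0.504 (limma adjusted p 2.16e-05) beside 0.501 for AT4G32340 alone. The row of AT5G19210 with AT3G58510 and AT2G42520, which are also DEAD-box helicases, went the other way, with 0.183 to 0.394 after treatment and 0.127 to 0.203 in water (ratio 1.71, limma adjusted p 0.0119). Which gene gives the signal of a shared row is not known.

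The other shared rows did not pass the threshold. Those of AT1G31220, AT5G46390, AT5G01860 and AT1G35510 had ratios of 1.15, 1.13, 1.81 and 3.20, the last with a treated replicate 3 of 5.37 and the other treated arrays between 0.460 and 0.831. Those of AT1G03810 and AT2G21960 had 0.749 and 0.853. The rows of AT3G50880 and AT3G03890 were listed at 0 on 11 and 10 of 12 arrays. For the members on a shared row, the lower value of the single-gene row was thus met by a lower value of the shared row in some cases and by a higher one in others.

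In the limma fit with all 12 arrays, 76 of the 91 members were lower at an adjusted p under 0.05, where 16.2% of all rows were. The rule used the same contrast, so nothing is read from this count. With arrays of adjacent numbers averaged within a group (3 against 3), limma called 23 members lower, and 182 rows lower and 236 higher in all. All rows split into 558 lower and 573 higher (50.7% of calls higher), and with intensities as deposited into 654 lower and 421 higher (39.2%). The median fitted log2 difference, treated minus water, was -0.84 over the members and 0.00 over all rows. It was 0.12 over the 454 other single-gene rows without a 0, from which the rule had taken the members.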

How the data were processed

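The authors' deposited table gives 1 linear intensity per row and array, with no background or scale stated. The sources used here do not give how the arrays were scanned or normalized. Array number, 6 in each group, limits the precision. Groups and replicate numbers come from the sample titles. Rows were named through the platform annotation, and 90 of 91 members matched a locus of TAIR10.1. Ratios and ranges are of deposited intensities.

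For the fit, each 0 was replaced by 0.0157, the 1st percentile of positive intensities. Quantile-normalized log2 values were tested in limma 3.58.1 (R 4.3.3), with no term beside group, and p-values were adjusted over 3439 rows by Benjamini-Hochberg. The fit was tested on simulated data. P-values cover only variation among these arrays, and that may be technical. Deviations of same-numbered treated and water arrays correlated between 0.302 and 0.425, all above the 0.1 required. Same-numbered samples were therefore treated as pairs in the log2 ratios, but the main limma fit and its p-values did not use the pairs. Arrays of different numbers reached 0.336, and 5 of 6 water arrays correlated best with their own number. Within a group, arrays of adjacent numbers (1 and 2, 3 and 4, 5 and 6) correlated between -0.09 and 0.64 and other arrays between -0.40 and -0.20. The mean of each group was subtracted first, which by itself pulls correlations within a group below 0. What numbers share is not in the labels.

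Members and lists were chosen with earlier results of these data known. Named members (47) were the 12 lowest ratios, the 6 brightest and members of 7 gene lists. Of the 59 listed genes, 5 had a row with a single gene. Also named were the 4 nearest the limit on each side, the 4 widest and 4 narrowest over pairs, and up to 4 per role. The other members are given so that each is accounted for. The lists covered the circadian clock, the bile acid and sodium symporter family, DEAD-box helicases of organelles, type IA topoisomerases, SnRK1, leaf markers and root markers. Each of the first 4 had 1 gene on a single-gene row, a member. Role groups came from textbook knowledge, because the tables hold no product text, so no shares of roles over all rows are given. Promoter and protein features were not analysed here.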

Additional observations from a re-analysis of the deposited data

Results flagged for a closer look

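The 47 members named by rule gave 94 groups of 6 arrays. In 4 of them (4.26%) a single array lay apart from the rest, by a cutoff meant to flag about 5% of groups by chance. That share assumes independent arrays, and adjacent arrays of a group correlated by up to 0.64, so nothing is read from the comparison. AT3G24190 stood at 6.12 in water replicate 4, with the other water arrays between 1.07 and 1.59. AT3G09250 had 0.612 in treated replicate 2, with the other treated arrays between 0.320 and 0.366. AT1G22700 had 0.811 in treated replicate 2, with the others between 0.656 and 0.708. AT4G00170 had 0.602 in water replicate 1, with the others between 1.19 and 1.40. Of these 4, AT3G24190 is the one whose ratio of means passed the limit of 0.667 without the array's pair (0.690).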

How the results depend on the processing

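With the replicate number as a block, 598 rows were called lower and 654 higher, against 558 and 573 without it, and 79 members against 76. The block changed no count by over 1.5 times. When arrays with adjacent numbers were averaged (3 against 3), 182 rows were called lower, 236 higher and 23 members lower. The cause was not tested, since this fit has fewer values and adjacent arrays of a group also correlated by up to 0.64. With intensities as deposited, 654 rows were lower and 421 higher (39.2% of calls higher, against 50.7%), and with median centring 488 and 500. The median log2 difference over the members was -0.71 with a pseudocount, which shrinks differences of dim rows. Leaving out 1 array, or both arrays of a number, gave 446 to 586 rows lower, 483 to 572 higher, 62 to 74 members lower and medians of -0.85 to -0.79. The rule was met by 28 rows at a ratio of 0.5 and by 130 at 0.8. When all treated arrays had to lie below all water arrays, it was met by 59. It was met by 69 rows after division by array medians and by 73 after quantile normalization. Without 1 number it was met by 91 to 100 rows, of which 84 to 88 were among the 91 members. Leaving out a number also drops a pair from the condition, so rows that had failed only there could enter. The ratio passed the limit without 1 number in 18 members.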
